A study of Mus musculus with 10 samples.

Results

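The secreted metalloproteases that cut the extracellular matrix, and the proteins that hold them in check, were followed in epididymal white adipose tissue of mice with and without the succinate receptor Sucnr1 in adipocytes. Genes were taken from the count table when their Ensembl ID carried, in GENCODE vM21, a protein-coding symbol made of Mmp, Timp or Adamts and a digit, or beginning with Adamtsl. That gave 50 of the 26040 genes listed. Of these, 44 reached at least 10 counts in at least 5 of the 10 libraries and are described as the reported genes: 17 matrix metalloproteinases (MMPs), 4 tissue inhibitors of metalloproteinases (TIMPs), 18 ADAMTS proteases and 5 ADAMTS-like proteins. The remaining 6 (Adamts13, Mmp1b, Mmp8, Mmp10, Mmp13 and Mmp20) lay below that minimum and are described by their counts. Mmp1a was not a member because vM21 types it as a polymorphic pseudogene.

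Total RNA was sequenced from the fat of 5 mice carrying an adipocyte-specific deletion of Sucnr1 (Ad-Sucnr1 KO, here the knockout) and 5 Sucnr1fl/fl mice (the control), all on the C57BL/6 strain. The labels name neither the Cre driver nor age or diet. Because RNA came from whole tissue, fewer cells of a type and less RNA per cell cannot be told apart in any value below.

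MMPs are zinc-dependent proteases that are made as inactive precursors and cut collagens, gelatin, elastin and other matrix proteins at the cell surface or after secretion. ADAMTS proteases are secreted relatives with thrombospondin repeats, and several cut the large proteoglycans versican and aggrecan or trim procollagens. TIMPs bind the active site of these enzymes and block it, and in adipose tissue the balance between proteases and inhibitors takes part in the remodelling of matrix and vessels as fat depots grow. ADAMTS-like proteins share the repeats but have no protease domain.

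Library totals lay between 24182798 and 30603326 counts. Sucnr1 stood at 2.05 to 4.67 CPM (a gene's counts relative to the TMM-scaled total of its library) in the knockout libraries and at 38.0 to 75.9 CPM in the control libraries (log2 fold change -4.26, edgeR adjusted p = 0.000333). The summed level of 10 adipocyte markers, Adipoq and Plin1 among them, was 32173 to 44343 CPM in the knockout and 20125 to 41337 CPM in the control, and 10 of 10 were higher in the knockout with none passing the test. Markers of other tissues stood apart in single libraries. The sum of 14 epididymal epithelium markers was 17740 CPM in control 6 and 6607 CPM in knockout 3, against 2.84 CPM in knockout 4, and the sum of 8 smooth muscle and vas deferens markers was 7936 CPM in control 3 against 326 to 1484 CPM elsewhere. The sum of 10 hepatocyte markers was 9215 CPM in knockout 6 against 908 to 3700 CPM elsewhere. Cyp2e1 made up most of the sums elsewhere, with 870 CPM in control 2 and 3644 CPM in knockout 2. Alb stood at 4310 CPM in knockout 6 against 8.69 to 83.1 CPM in the other libraries.

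Divided by the length of their exons, 3 of the 4 inhibitors were the most abundant of the reported genes. Timp2 led with a mean of 99.5 CPM per kilobase over the 10 libraries, and its range of 71.4 to 136 did not reach that of any other reported gene. Timp4 (34.3 CPM per kilobase) and Timp3 (33.4 CPM per kilobase) followed and overlapped each other. Among the proteases the proteoglycan-cleaving enzyme Adamts5 stood highest at 27.4 CPM per kilobase. Below it came the gelatinase Mmp2 at 20.3, the epilysin Mmp28 at 16.6 and the procollagen N-proteinase Adamts2 at 13.0 CPM per kilobase. Every pair of neighbours in the order of the 44 genes overlapped in range except Timp2 and Timp4. Adamtsl4, at rank 16 with 7.47 CPM per kilobase, was above the next gene, Mmp9, at 3.40, in 10 of 10 libraries. The lowest was Adamts18 at 0.0799 CPM per kilobase.

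**Figure D1:**
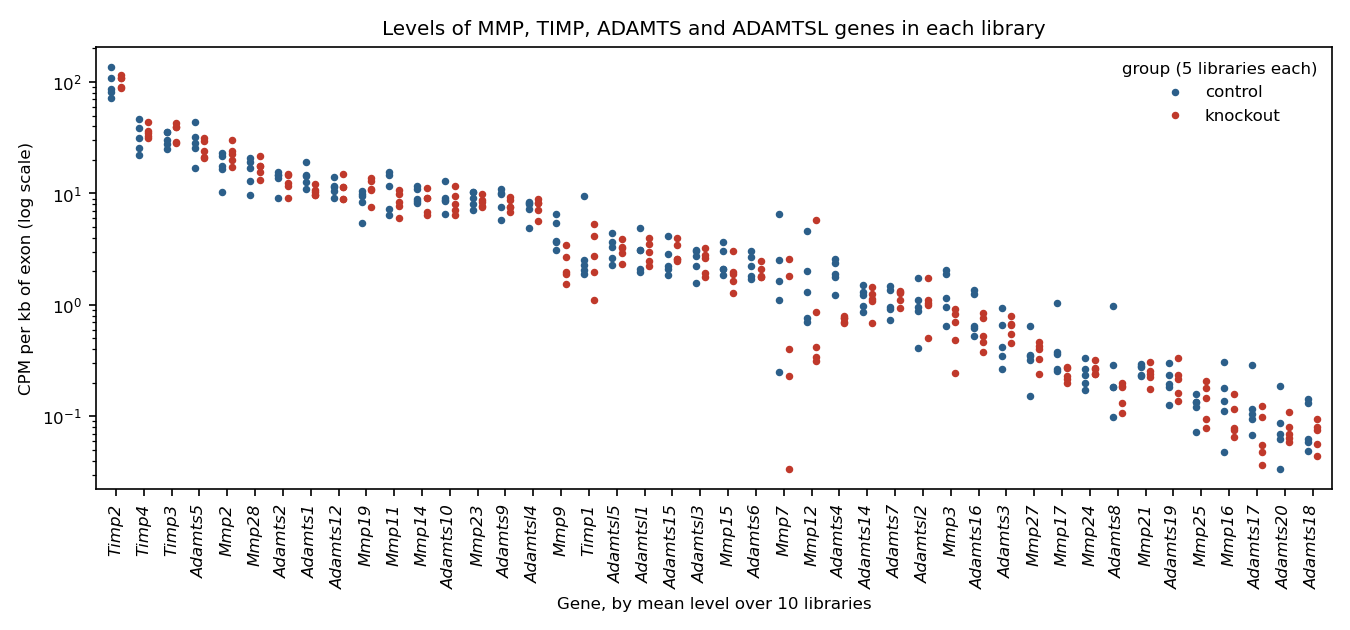
Level of each of the 44 reported genes in each of the 10 libraries, in CPM per kilobase of exon on a log axis, ordered by the mean. Timp2 lies above all others (71.4 to 136), and Timp1 lies with the proteases at a mean of 3.36.

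In the knockout against the control, Adamts4 fell, and no other reported gene passed the test. Adamts4 encodes a secreted protease that cuts aggrecan and versican. It was the 1 called gene among the 44 (2.27%), where 10 of all 16446 genes tested were called (0.0608%), 6 of them lower (0.0365%) and 4 higher (0.0243%), by edgeR's quasi-likelihood test with Benjamini-Hochberg adjustment over all genes and a threshold of 0.05. Among the reported genes 28 were lower and 16 higher (63.6% lower, against 55.2% of all genes), and the median log2 fold change was -0.10 against -0.03 for all genes. An unadjusted p under 0.05 was found for 5 of 44 (11.4%), all lower in the knockout, against 10.1% of all genes. The groups did not overlap for 1 of 44 (2.27%) against 1.91% of all genes. Scaling by library totals gave 12 higher and 32 lower, with Adamts19, Adamtsl1, Adamtsl4 and Mmp27 changing sign, and moved the median of all genes to -0.09.

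By family, 14 of 18 ADAMTS genes were lower (median log2 fold change -0.17), 11 of 17 MMP genes were lower (median -0.17), 3 of 4 TIMP genes were higher (median 0.10) and 3 of 5 ADAMTS-like genes were higher (median 0.00). Beside these directions, 10 of 10 endothelial markers were lower in the knockout, with a summed level of 655 to 887 CPM against 734 to 1308 CPM, and 9 of 10 macrophage markers were lower, with sums of 918 to 1326 CPM against 927 to 1670 CPM. None of these markers passed the test, and their part in the values of the proteases was not tested. With an adipocyte marker score as a covariate, 31 of the 44 genes were lower and the median was -0.27, against 0.015 for all genes. The 10 markers of the score were all higher in the knockout, so score and genotype cannot be fully separated in that fit.

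**Figure D2:**
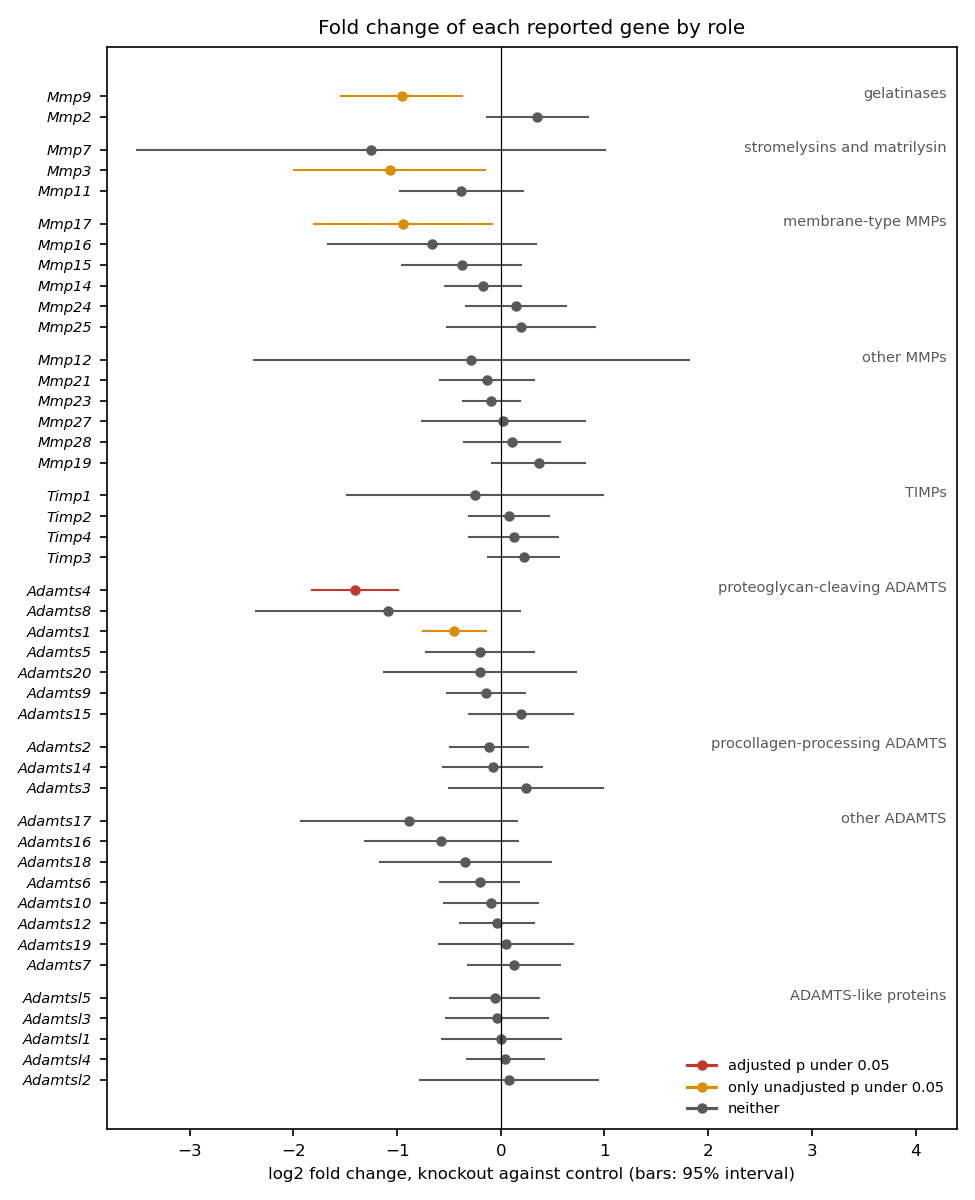
Log2 fold change, knockout against control, of each reported gene with its 95% interval, grouped by role. Adamts4 at -1.40 is the gene with an adjusted p under 0.05, and Mmp9, Mmp3, Mmp17 and Adamts1 have an unadjusted p under 0.05 alone.

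The libraries differed in how often they held the extremes. Control 3 had the highest value of the 10 libraries for 13 of the 44 genes, control 5 for 10 and control 4 for 7. Control 6 had the lowest value for 16 and knockout 3 for 9. The coefficient of variation was larger in the control than in the knockout for 32 of 44 genes, with medians of 29.3% and 21.9%. Neither this nor the tallies of extremes was counted over all genes, so none can be read as particular to the reported genes. The highest library exceeded the lowest by 1.48-fold to 194-fold across genes, with a median of 2.58-fold. The 194-fold ratio belonged to Mmp7, which had 1 read in its lowest library.

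The proteoglycan-cleaving ADAMTS genes held the called gene, and 6 of their 7 reported members were lower (median log2 fold change -0.20). Adamts4 (ENSMUSG00000006403, plus strand of chromosome 1, 171250421 to 171260637) stood at 3.68, 3.32, 3.70, 3.41 and 3.83 CPM in knockout libraries 2 to 6. In control libraries 2 to 6 it stood at 8.65, 11.4, 12.5, 9.16 and 5.86 CPM. The knockout libraries lay close together, with a coefficient of variation of 5.91%, and every one was below every control library, of which control 6 was the lowest. In reads these were 105, 97, 103, 96 and 113 in the knockout and 257, 296, 352, 243 and 167 in the control. At so few reads, counting noise limits what the closeness of the knockout libraries can show. The means were 3.59 ± 0.21 and 9.51 ± 2.58 CPM (SD, n = 5 each). The log2 fold change was -1.40, its standard error 0.19 and its 95% interval -1.82 to -0.99 (edgeR adjusted p = 0.0333). The exact two-sided permutation p was 0.00794, the smallest that 5 against 5 libraries can give.

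The size of the Adamts4 difference lay between -1.54 and -1.29 when each library was left out in turn, but its call did not last: the adjusted p was 0.117 to 0.168 without any 1 knockout library and 0.0863 to 0.123 without control 2, 3, 4 or 5, and 0.00266 without control 6. It was 0.16 with limma-voom and 1.82e-08 with DESeq2, and the gene was called in 9 of the 22 alternatives run. Without the 5 libraries with the most epididymal RNA the log2 fold change was -1.57 (adjusted p = 0.339). Knockouts 2 and 3 and controls 2, 3 and 6 were those left out. Knockouts 4, 5 and 6 and controls 4 and 5 remained, and fewer libraries give the test less power. Without control 3 and knockout 6 the value was -1.36 (adjusted p = 0.336), and with the adipocyte score it was -1.60 (adjusted p = 0.0451).

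**Figure D3:**
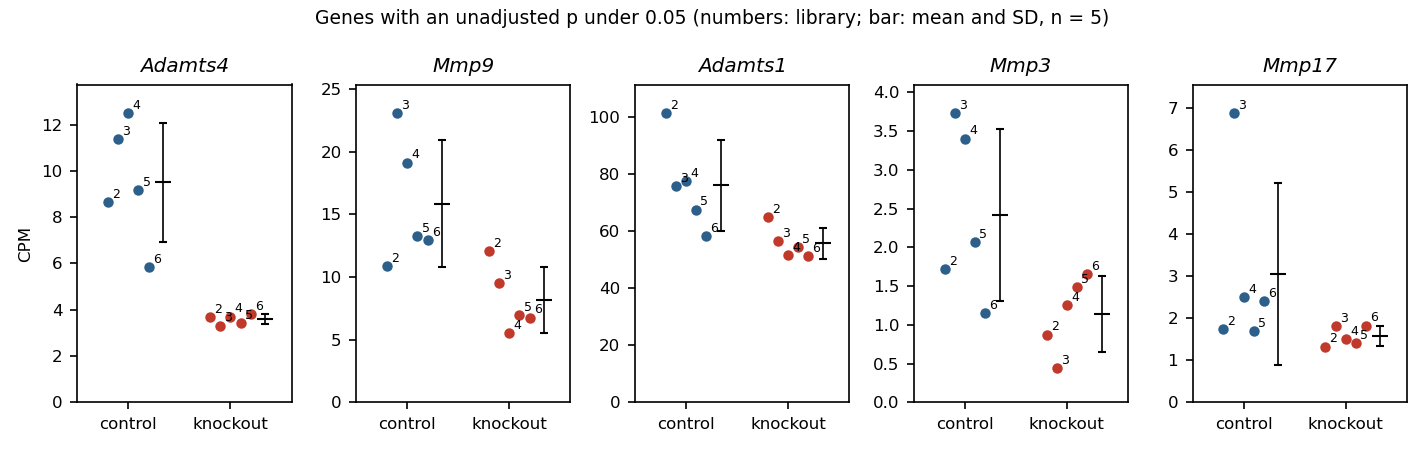
CPM in each library (numbers are the library) of Adamts4, Mmp9, Adamts1, Mmp3 and Mmp17, with mean and SD bars (n = 5). For Adamts4 the knockout libraries lie between 3.32 and 3.83 and the control libraries between 5.86 and 12.5, while the groups of the other 4 genes overlap.

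Adamts1, a versican- and aggrecan-cutting protease also known to restrain vessel growth, lies on the minus strand of chromosome 16 (85793827 to 85803113). It stood at 64.8, 56.5, 51.7, 54.3 and 51.3 CPM in knockout libraries 2 to 6. In the control libraries it stood at 101, 75.9, 77.4, 67.5 and 58.4 CPM. Controls 2 to 5 were above all knockout libraries, and control 6 lay below knockout 2. The means were 55.7 ± 5.50 and 76.1 ± 16.0 CPM, a log2 fold change of -0.45 with a 95% interval of -0.75 to -0.15, which did not pass the test (edgeR adjusted p = 0.400, exact permutation p = 0.0159).

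The upstream sequence is shown for the members with an unadjusted p under 0.05 that have an entry in the RefSeq promoter table, Adamts1 and Mmp3, so that their start regions can be set side by side. Each run is the 250 bases before the annotated start on GRCm38.p6, 5′ to 3′ on the gene's own strand. Adamts1 is chr16:85803114-85803363 (minus strand) and Mmp3 is chr9:7445572-7445821 (plus strand). Capitals mark matches to 3 motifs searched on both strands, which are the AP-1 site TGANTCA, the TATA box TATAAA and the GC box GGGCGG.
Adamts1: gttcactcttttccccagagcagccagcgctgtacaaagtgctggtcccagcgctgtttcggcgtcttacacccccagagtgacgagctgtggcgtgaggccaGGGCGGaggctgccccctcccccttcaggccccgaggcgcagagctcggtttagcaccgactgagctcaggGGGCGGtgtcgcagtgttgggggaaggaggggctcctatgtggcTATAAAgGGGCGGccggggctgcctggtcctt
Mmp3: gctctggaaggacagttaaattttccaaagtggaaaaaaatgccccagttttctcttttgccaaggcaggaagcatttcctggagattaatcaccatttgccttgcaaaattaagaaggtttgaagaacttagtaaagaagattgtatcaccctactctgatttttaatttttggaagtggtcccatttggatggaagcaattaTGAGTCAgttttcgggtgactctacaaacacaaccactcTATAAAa
In Adamts1 the TATA box lay 32 to 27 bases before the start, with 3 GC boxes and no AP-1 match in the window. In Mmp3 the AP-1 match lay 46 to 40 bases and the TATA box 7 to 2 bases before the start, with no GC box. No match overlapped that of another motif. Of 32851 promoters in the table, 6.75% held the AP-1 letters, 12.4% the TATA box and 32.7% the GC box. Of the 29 reported genes with an entry, 3 held the AP-1 letters (Mmp3, Mmp7 and Mmp12; 10.3%), 5 the TATA box (17.2%) and 20 the GC box (69%). A gene was counted if any of its promoters matched, while the shares of the table are per promoter, so the percentages are not like measures. All motif matches are matches of letters and say nothing of binding.

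Adamts5, the other main aggrecan-cutting enzyme and the most abundant protease per length, lies 53059 bases from Adamts1 on chromosome 16. It stood at 261, 222, 342, 319 and 229 CPM in knockout libraries 2 to 6. The control libraries held 345, 275, 305, 474 and 182 CPM. The highest and the lowest value were both in the control, in libraries 5 and 6, so the knockout range lay inside the control range. Its log2 fold change was -0.20 (edgeR adjusted p = 0.760), and it was -0.01 without control 5 and -0.35 without control 6. Adamts8, which cuts aggrecan in other tissues, had a fitted log2 fold change of -1.09 (adjusted p = 0.535), but control 3 held 4.50 CPM against 0.45 to 1.33 CPM in the other control libraries, and without control 3 the value was -0.23.

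None of the 3 procollagen-processing ADAMTS genes passed the test. These enzymes remove the amino-terminal propeptide of fibrillar procollagens. Adamts2, the most abundant of them, stood at 115, 84.2, 136, 139 and 109 CPM in knockout libraries 2 to 6. In the control libraries it stood at 129, 136, 137, 145 and 85.0 CPM. The groups overlapped, with knockout 3 and control 6 both low, and the log2 fold change was -0.11 (edgeR adjusted p = 0.815), with -0.02 without knockout 3 and -0.23 without control 6.

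Among the other ADAMTS genes, 6 of 8 were lower and none passed the test (median log2 fold change -0.15). Adamts12, which cuts cartilage oligomeric matrix protein, was the most abundant. Its knockout values were 162, 97.6, 126, 97.1 and 124 CPM, and its control values were 128, 116, 155, 124 and 100.2 CPM. Both groups spanned nearly the same range (log2 fold change -0.04, edgeR adjusted p = 0.939). Adamts17, linked to the fibrillin microfibrils of connective tissue, had a log2 fold change of -0.89 that became -0.41 without control 6.

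The 2 gelatinases, which cut denatured collagen and the type IV collagen of basement membranes, lay in opposite directions and neither passed the test. Mmp9 (plus strand of chromosome 2, 164940780 to 164955850) stood at 12.1, 9.52, 5.50, 6.97 and 6.77 CPM in knockout libraries 2 to 6. The control libraries held 10.9, 23.1, 19.1, 13.3 and 13.0 CPM. Knockout 2 lay above control 2, and the other 4 knockout libraries lay below every control. The means were 8.17 ± 2.63 and 15.9 ± 5.06 CPM, a log2 fold change of -0.96 with a 95% interval of -1.54 to -0.37 (edgeR adjusted p = 0.372, exact permutation p = 0.0159). DESeq2 gave an adjusted p of 0.0434, in a fit that called 213 genes, 1.41% of those it adjusted. Mmp9 is made by neutrophils and macrophages among other cells. Of 10 neutrophil markers, 4 were tested and 3 of these were lower in the knockout (median log2 fold change -0.34), none passing the test. The summed level of the 10 was 6.47 to 82.9 CPM in the knockout and 9.99 to 125 CPM in the control. Both upper ends were mostly Ltf, at 77.3 CPM in knockout 3 and 119 CPM in control 6. These are the libraries with the highest epididymal epithelium sums, and Csf3r stood at 2.53 and 3.93 CPM there. Ly6g was at 0 in 8 of 10 libraries, while Csf3r, at most 6.84 CPM, was above 0 in all 10. The part of these cells and of macrophages in the Mmp9 value was not tested.

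Mmp2, the more abundant gelatinase, stood at 101, 67.3, 58.6, 76.3 and 81.0 CPM in the knockout. Its control values were 55.4, 73.9, 78.1, 59.1 and 34.6 CPM. Knockout 2 was the highest and control 6 the lowest, and the other 8 libraries were interleaved. The log2 fold change was 0.35 with a 95% interval of -0.13 to 0.84 (edgeR adjusted p = 0.588). It was 0.20 without control 6 and 0.07 without the 5 libraries with the most epididymal RNA.

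All 3 reported stromelysin and matrilysin genes were lower in the knockout (median log2 fold change -1.07), and none passed the test. Mmp3, stromelysin of fibroblasts and other stromal cells that also activates other MMP precursors, lies on the plus strand of chromosome 9 (7445822 to 7455975). It stood at 0.88, 0.45, 1.26, 1.49 and 1.66 CPM in the knockout. In the control libraries it read 1.72, 3.73, 3.40, 2.07 and 1.16 CPM. Controls 2 to 5 were above every knockout library, and control 6 lay below 3 of them. The log2 fold change was -1.07 with a 95% interval of -2.00 to -0.15 (edgeR adjusted p = 0.459, exact permutation p = 0.0476).

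Mmp11, a stromelysin known from fibroblasts around tumours and from developing fat, was the most abundant of the class. It stood at 27.8, 23.4, 16.7, 29.9 and 21.3 CPM in the knockout. Control libraries 2 to 6 held 32.7, 20.3, 43.3, 40.9 and 17.7 CPM. The groups overlapped, with controls 4 and 5 highest and knockout 4 lowest, and the log2 fold change was -0.38 (edgeR adjusted p = 0.635). Mmp7, matrilysin, an epithelial enzyme, ran from 0.04 CPM in knockout 4 to 6.98 CPM in control 4, the widest ratio between libraries of the 44 genes at 194-fold. The lower value was 1 read, against 197 reads in control 4, so the ratio is imprecise.

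Of the 6 membrane-type MMPs, which are anchored to the cell surface, 4 were lower and 2 higher and none passed the test. Mmp17, held at the membrane by a lipid anchor, lies on the plus strand of chromosome 5 (129584169 to 129611099). It stood at 1.33, 1.81, 1.51, 1.42 and 1.83 CPM in the knockout. Its control values were 1.75, 6.88, 2.52, 1.70 and 2.42 CPM. Control 3 stood far above the rest, and controls 2 and 5 lay within the knockout range. The log2 fold change of -0.95 (edgeR adjusted p = 0.480, exact permutation p = 0.0476) became -0.41 without control 3 (adjusted p = 0.727). Control 3 is also the library with the high smooth muscle and vas deferens sum given above, and the part of that tissue in the Mmp17 value was not tested.

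Mmp14, which with Timp2 activates the Mmp2 precursor at the cell surface, was the most abundant membrane-type gene. It stood at 66.5, 54.1, 38.3, 54.0 and 41.0 CPM in the knockout. The controls gave 50.5, 64.7, 69.7, 52.9 and 48.7 CPM. Both groups shared most of their range, and the log2 fold change was -0.17 (edgeR adjusted p = 0.719), with -0.29 without knockout 2 and -0.09 without knockout 4.

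The other MMP genes split evenly, 3 higher and 3 lower, and none passed the test. Mmp28, epilysin, had the highest level per length among them, with 68.6, 51.4, 84.5, 68.4 and 60.5 CPM in the knockout. In the control it stood at 80.7, 50.6, 66.1, 74.9 and 37.6 CPM. The groups overlapped, with knockout 4 highest and control 6 lowest (log2 fold change 0.11, edgeR adjusted p = 0.861). Mmp19 had the largest positive log2 fold change of the 44 genes, 0.37, and did not pass the test (adjusted p = 0.549).

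Mmp12, the macrophage metalloelastase, rested on single libraries. It stood at 2.28, 3.05, 2.48, 41.8 and 6.19 CPM in the knockout. The control libraries held 14.6, 5.11, 9.50, 33.1 and 5.57 CPM. Library 5 of each group was highest, and the other 8 lay between 2.28 and 14.6 CPM. The log2 fold change of -0.28 (edgeR adjusted p = 0.922) became -1.96 without knockout 5 and 0.36 without control 5. The sum of the 10 macrophage markers was 1239 CPM in knockout 5 and 1252 CPM in control 5. It was highest in knockout 6 among the knockouts (1326 CPM) and in control 3 among the controls (1670 CPM). Of the single markers Gpnmb alone was highest of all libraries in knockout 5, at 54.2 CPM against 13.6 to 42.5 CPM elsewhere. The part of macrophages in the Mmp12 value was not tested.

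No TIMP passed the test, and the groups overlapped for all 4. Timp2 (minus strand of chromosome 11, 118301069 to 118355740), which inhibits MMPs and also takes part in the activation of Mmp2, stood at 449.9, 355, 343, 421 and 423 CPM in the knockout. Its control values were 334, 424, 530.4, 317 and 278 CPM. The control range enclosed the knockout range, and the log2 fold change was 0.08 with a 95% interval of -0.31 to 0.47 (edgeR adjusted p = 0.874).

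Timp3 (plus strand of chromosome 10, 86300372 to 86349506) is bound to the matrix and inhibits Adamts4, Adamts5 and Adam17 as well as MMPs. It stood at 233, 235, 324, 351 and 322 CPM in the knockout. Control libraries 2 to 6 held 225, 248, 291, 291 and 203 CPM. Knockouts 4, 5 and 6 were above all control libraries, and knockouts 2 and 3 lay within their range. The log2 fold change was 0.22 with a 95% interval of -0.12 to 0.56 (edgeR adjusted p = 0.629).

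Timp4 (minus strand of chromosome 6, 115241892 to 115252205), known for its expression in fat and heart, stood at 194, 187, 204, 213 and 256 CPM in the knockout. The controls gave 185, 152, 228, 272 and 129.7 CPM. The control libraries again held both extremes, and the log2 fold change was 0.12 with a 95% interval of -0.30 to 0.55 (edgeR adjusted p = 0.819). It was 0.01 without control 6 and -0.19 with the adipocyte score. Timp1 (plus strand of the X chromosome, 20870166 to 20874735), the inducible inhibitor of many secreted MMPs, stood at 4.70, 0.99, 3.70, 2.45 and 1.76 CPM in the knockout. In the control it stood at 1.68, 8.38, 2.27, 2.04 and 1.82 CPM. Control 3 stood far above the other 4 controls, and the log2 fold change of -0.25 (adjusted p = 0.875) became 0.47 without it.

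Timp1, Timp3 and Timp4 each lie inside a synapsin gene on the opposite strand (Syn1, Syn3 and Syn2). Syn3 stood at 5.63 ± 0.68 CPM in the knockout and 6.37 ± 1.67 CPM in the control, and Syn2 at 21.2 ± 13.1 and 20.5 ± 20.6 CPM. In these means both lay well below their TIMP partners. Syn2 was highest in control 6 at 57.1 CPM, the library where Timp4 was lowest at 129.7 CPM. Syn1 stood at 1.61 ± 0.22 and 1.88 ± 0.23 CPM, close to Timp1.

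**Figure D4:**
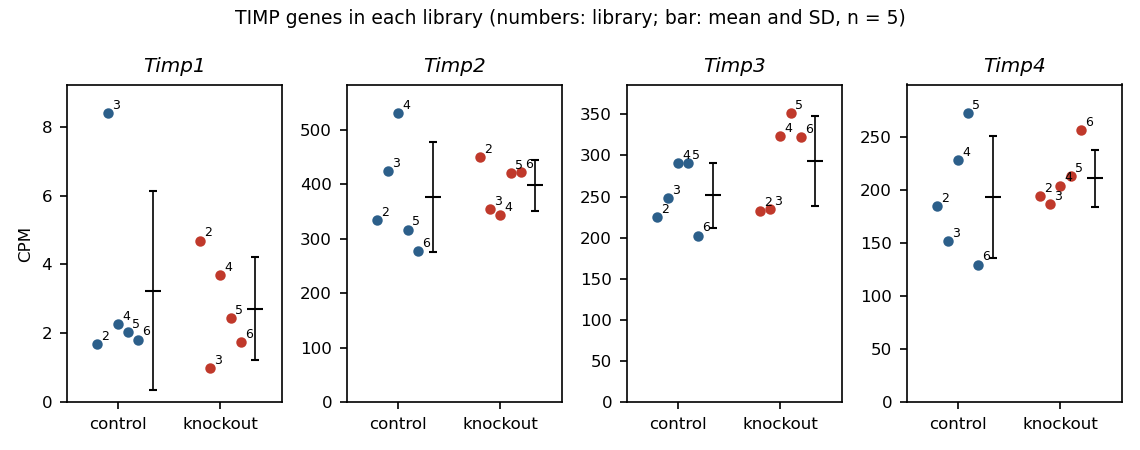
CPM of Timp1, Timp2, Timp3 and Timp4 in each library (numbers are the library), with mean and SD bars (n = 5). The groups overlap for all 4 genes, and control 3 stands apart for Timp1 at 8.38.

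The 5 ADAMTS-like genes showed the smallest differences of any family, with log2 fold changes from -0.06 to 0.08. Adamtsl4, which binds fibrillin microfibrils, was the most abundant per length, with 29.6, 23.6, 34.2, 37.3 and 34.4 CPM in the knockout. Its control values were 30.2, 34.5, 35.2, 33.9 and 20.5 CPM. The groups overlapped throughout (log2 fold change 0.04, edgeR adjusted p = 0.935).

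A run of 9 MMP members lies on chromosome 9 between 7272514 and 7699585, in the order Mmp13, Mmp12, Mmp1b, Mmp3, Mmp10, Mmp8, Mmp27, Mmp20 and Mmp7. Of these, 4 were reported (Mmp12, Mmp3, Mmp27 and Mmp7), and Mmp3 is the member with an unadjusted p under 0.05. The other 5 were below the minimum. The collagenases of the rule, Mmp8, Mmp13 and Mmp1b, are all in this run, so no reported gene is a member of that class. Mmp8, the neutrophil collagenase, had 4, 34, 3, 3 and 1 counts in knockout libraries 2 to 6. Control libraries 2 to 6 had 8, 6, 2, 2 and 100 counts. The 2 high libraries, control 6 and knockout 3, are those with the highest epididymal epithelium sums.

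Mmp1b, an interstitial collagenase gene, had 3, 10, 0, 0 and 0 counts in the knockout and 40 in control 6 with 0 in the other 4 controls. Mmp20, enamelysin of teeth, had 3, 3, 0, 0 and 0 counts in the knockout and 8 in control 6 with 0 in the other 4 controls. Both therefore had counts only in control 6, knockout 3 and knockout 2. Mmp1b overlaps Mmp12 on the opposite strand, and Mmp1a and Mmp1b are near copies that the counting could split. The part of epididymal RNA in these counts was not tested. Mmp13 had at most 12, Mmp10 at most 9 and Adamts13, on chromosome 2, at most 16 counts in any library.

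**Figure D5:**
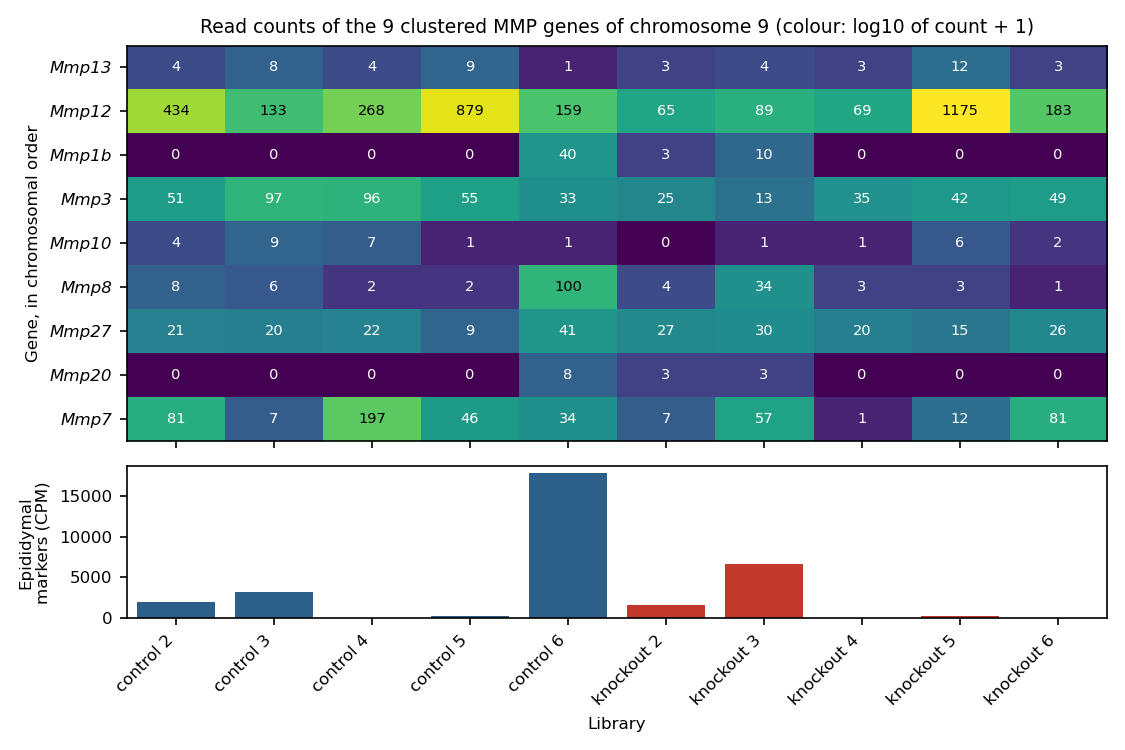
Counts of the 9 MMP genes of the chromosome 9 run in each library, in gene order along the chromosome. Mmp8 is highest in control 6 (100) and knockout 3 (34), and Mmp1b and Mmp20 are at 0 in most libraries.

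No tested gene of the 5 related lists passed the test. In the plasminogen system and its serpins, which activate MMP precursors, 4 of 10 were higher and 6 lower. The urokinase gene Plau had a log2 fold change of -0.41. Of 14 other inhibitors, activators and clearance receptors, 9 were lower. Furin, which removes the propeptide of membrane-type MMPs and ADAMTS enzymes, stood at 84.1 ± 7.51 CPM in the knockout and 74.9 ± 4.39 CPM in the control (log2 fold change 0.17, edgeR adjusted p = 0.491).

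Of 17 tested substrates and binding partners, 10 were lower and 2 had an unadjusted p under 0.05. Thrombospondin-1, encoded by Thbs1 and cut by ADAMTS1, stood at 614 ± 301 CPM in the knockout and 1267 ± 458 CPM in the control (log2 fold change -1.04, edgeR adjusted p = 0.436). The groups overlapped. Of 10 tested membrane-bound ADAM proteases, 8 were lower. Adam17, which releases tumour necrosis factor from the cell surface and is inhibited by Timp3, stood at 45.2 ± 3.05 and 52.6 ± 3.60 CPM (log2 fold change -0.22, edgeR adjusted p = 0.423). Of 17 other matrix proteases, cathepsins and serine proteases among them, 14 were lower (median log2 fold change -0.19). The smallest p there belonged to Prss23, a secreted serine protease, at -0.33 (adjusted p = 0.496).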

How the data were processed

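RNA was measured by total RNA sequencing of epididymal white adipose tissue in 5 knockout and 5 control libraries, each prepared from 300 ng of total RNA with a strand-specific kit, per the labels' protocols. The authors deposited raw counts per gene for all 10 libraries. Reads were aligned with STAR 2.5.2 to mm10, per the submitters' processing notes. How reads were counted (tool, gene models, strand) was not given in the sources used here. Depth was 24182798 to 30603326 counts per library, which limits precision most for members of few counts.

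Symbols came from GENCODE vM21, which matched 26008 of 26040 IDs. Counts were tested with edgeR 4.0.16 (limma 3.58.1, R 4.3.3): TMM scaling, filterByExpr with a minimum of 10 counts and a total of 15, robust quasi-likelihood fit on genotype alone, a prior count of 2 and Benjamini-Hochberg adjustment over the 16446 genes tested, with calls at 0.05. CPM uses TMM-scaled library sizes, and intervals are 95% intervals of the fit. For single genes, CPM was also tested with two-sided exact permutation over the 252 assignments of libraries. The fit was tested on simulated data. No 2 libraries agreed within sampling noise (chi-square per degree of freedom at least 24.6 in 45 pairs).

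Members and gene lists were chosen with earlier results of these data known. Values in every library are given for members that were called, had an unadjusted p under 0.05, are TIMPs, or had the highest level per length in their role class; from each related list, the 3 genes of smallest p could be named, and others named were chosen after their values were seen. Alternatives were other scalings, DESeq2 1.42.0, limma-voom, other filters, a replicate block, an adipocyte marker covariate and libraries left out. Promoter sequences are RefSeq's for GRCm38.p6. Some genes are not reported here.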

Additional observations from a re-analysis of the deposited data

Results flagged for a closer look

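In 6 of 88 groups of 5 libraries, 1 library stood apart from the other 4 by a gap that exceeded Dixon's 95% critical value of 0.71; chance flags about 1 in 20 groups. In control 3, Mmp17 stood at 6.88 CPM against 1.70 to 2.52 CPM in the other controls. Timp1 stood at 8.38 CPM there against 1.68 to 2.27 CPM. Adamts8 stood at 4.50 CPM there against 0.45 to 1.33 CPM. In control 6, Adamts17 stood at 2.24 CPM against 0.53 to 0.90 CPM in the other controls, and Adamts2 was low at 85.0 CPM against 129 to 145 CPM. In knockout 5, Mmp12 stood at 41.8 CPM against 2.28 to 6.19 CPM in the other knockout libraries. Control 3 is the library with the highest smooth muscle and vas deferens marker sum (7936 CPM), and control 6 the one with the highest epididymal epithelium marker sum (17740 CPM); the part of these tissues in the values was not tested.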

How the results depend on the processing

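The number of genes called over all genes, 10 with edgeR, was 213 with DESeq2, 27 with limma-voom with sample weights, 3 without the 5 libraries with the most epididymal RNA, 4 without control 3 and knockout 6, and 3 to 18 with 1 library left out at a time. Of the members, 1 was called with edgeR, 2 with DESeq2 (Adamts4 and Mmp9), 0 with limma-voom, 0 in each of those 2 omissions and 0 to 1 with 1 library left out. The groups share replicate numbers, and with the number as a replicate block 4 genes and 0 members were called, with Adamts4 at -1.36 (adjusted p = 0.228). Same-numbered libraries had correlated deviations of 0.377, -0.113, 0.632, 0.436 and -0.096, and 2 of 5 knockout libraries correlated best with their own number. Not every correlation was over 0.1 and no label ties the numbers to shared animals or days, so the libraries were treated as unpaired.

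Over the members' log2 fold changes with 1 library left out, 399 kept direction and side of the threshold, 32 reversed and 9 lost the call; under the other alternatives 492 kept both, 31 reversed, 4 lost the call and 1 gained it. No member that changed sign had been called; the cause was not tested. Log2 fold changes that reversed with library totals were -0.024 for Adamts19, -0.068 for Adamtsl1, -0.014 for Adamtsl4 and -0.044 for Mmp27. With limma-voom, Adamts20 was 0.005. With sample weights, Adamts12 was 0.002, Adamts20 0.21, Adamtsl4 -0.05, Mmp25 -0.17, Mmp28 -0.047, Timp1 0.33 and Timp4 -0.014. With the adipocyte covariate, Adamts20 was 0.34, Adamts8 0.10, Adamtsl2 -0.50, Adamtsl4 -0.17, Mmp19 -0.02, Mmp28 -0.29, Timp1 0.19, Timp2 -0.072 and Timp4 -0.19. Without the 5 libraries with epididymal RNA, Adamts19 was -0.24, Adamts8 0.28, Adamtsl2 -0.32, Timp1 0.29, Timp2 -0.10 and Timp4 -0.16. Without control 3 and knockout 6, Adamts20 was 0.33, Mmp27 -0.017, Timp1 0.60 and Timp4 -0.03.

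With 1 library left out, log2 fold changes ranged from -0.24 to 0.064 for Adamts10, -0.16 to 0.052 for Adamts12, -0.18 to 0.054 for Adamts14, -0.16 to 0.21 for Adamts19, -0.41 to 0.26 for Adamts20, -0.12 to 0.24 for Adamtsl1, -0.16 to 0.36 for Adamtsl2, -0.17 to 0.065 for Adamtsl3, -0.077 to 0.13 for Adamtsl4, -0.17 to 0.076 for Adamtsl5, -1.96 to 0.36 for Mmp12, -0.17 to 0.33 for Mmp27, -0.035 to 0.22 for Mmp28, -0.54 to 0.47 for Timp1 and -0.015 to 0.24 for Timp2.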
